A study of Homo sapiens with 72 samples.

Results

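The proteasome is the barrel-shaped protease that degrades ubiquitin-tagged proteins in the cytoplasm and nucleus. Its 20S core is a stack of alpha and beta rings, with the catalytic sites on beta subunits, and its 19S cap recognises, deubiquitinates and unfolds substrates with the help of a ring of ATPases. Interferon signalling replaces the catalytic subunits with the immunoproteasome forms, and shortage of proteasome activity is known to raise transcription of most subunit genes through the factor NFE2L1. The genes described here are those whose symbol is PSM, a letter from A to G, a number and at most 1 further letter, a rule that leaves out pseudogenes. They number 48 of the 61541 genes listed, and they encode 20S and 19S subunits, activators, the regulator PSMF1 and assembly chaperones. The rule used no measured value.

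G3BP1 is an RNA-binding protein that nucleates stress granules in stressed cells, and its NTF2 domain is the part through which it dimerises and binds partner proteins. RNA immunoprecipitation sequencing (RIP-seq) set 3 immunoprecipitates (IP) of FLAG-tagged G3BP1 against 3 inputs in FlpIn 293 Trex cells, a human embryonic kidney line with stable FLAG-G3BP1 induced by 1 ug/mL tetracycline for 24 h. The first RNA-seq experiment in U2OS osteosarcoma cells had 3 groups of 2 libraries. These were wild-type cells (WT), cells with both G3BP1 and G3BP2 knocked out (KO), and KO cells collected 24 h after Lipofectamine transfection of a G3BP1 transgene (G3BP1 rescue). The second U2OS experiment had 6 groups of 2 libraries, all in the G3BP1/2 knockout. They were KO cells, KO cells 24 h after transfection of wild-type G3BP1 (WT rescue), and KO cells 24 h after transfection of G3BP1 lacking the NTF2 domain (NTF2-deletion rescue), each without and with 200 uM sodium arsenite for 2 h. Arsenite is an oxidative stressor that induces stress granules. The KO groups were not transfected, so the transgene and the transfection cannot be told apart in any rescue comparison. Whether the libraries of a group came from separate cultures is not given in the sources used here, so p-values measure the spread between libraries, which may be technical.

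Values were deposited as 11 tables of comparisons. In 10 of them, those of U2OS cells, the whole reads of every library were recovered from the deposited averages, and "normalised reads" below are these reads divided by the library's size factor, on 1 scale within each experiment. Reads in recovered genes ran from 33427255 to 45319117 per library in the first experiment and from 9499522 to 23393458 in the second. A gene was called at an authors' adjusted p under 0.05, and fold changes are on the log2 scale with the authors' standard error (SE), the first-named group over the second. Among the targeted genes, G3BP1 had 18203 and 19095 normalised reads in WT, 12670.4 and 12696 in KO and 20450.5 and 20705 in G3BP1 rescue, so its transcript was still counted in KO cells. In the second experiment the authors' deposited tables gave G3BP1 a log2 fold change of 7.31 in WT rescue and 7.75 in NTF2-deletion rescue over KO. Base means are the deposited average of normalised reads over a table's libraries. Of the U2OS markers, COL1A1, the osteoblast collagen, and SPARC had base means of at least 3439 and 8273 in U2OS against 26.4 and 32 in the RIP table. TWIST1 went the other way, at or near 0 in U2OS against 210 in the RIP table. ALPL, RUNX2 and BGLAP had 20.4, 69 and 2.83 in the RIP table. In the second U2OS experiment they had 159 to 366, 83 to 201 and 2.27 to 6.81, so that BGLAP did not tell the lines apart. The kidney-line markers PAX2, EYA1 and LHX1 had base means of 45.8, 76.4 and 36.9 in the RIP table, against 5.88 to 15.4, 33.6 to 222 and 40.1 to 105 in the second U2OS experiment, where tables had a similar depth. NEFL and NEFM, also kidney-line markers, had 1078 and 4.87 in the RIP table against 232 to 655 and 0.723 to 4.15 there. Against the second experiment PAX2 and NEFL were thus higher in the FlpIn 293 Trex table, as was NEFM by a small margin on few reads. EYA1 did not tell the lines apart, and LHX1 went the other way, lower than in every U2OS table. In the first U2OS experiment each of these kidney-line markers had base means above its RIP value. PAX2 had 82.9 to 188, NEFL 3734 to 4556, NEFM 9.51 to 12.3, EYA1 360 to 563 and LHX1 234 to 336. The tables of that experiment were also deeper, at 44.2 to 46.95 M normalised reads per library against 12.2 M in the RIP table. Base means were not corrected for depth, so against the first experiment no kidney-line marker was shown to be higher in the FlpIn 293 Trex table.

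A base mean of 10 or more in all U2OS tables was reached by 46 of the 48 genes. The other two are tissue forms. PSMA8, a testis alpha subunit, and PSMB11, the thymus beta subunit, had at most 1.91 and 3.51 normalised reads in any U2OS library of the first experiment and were not tested. RIP-seq gave a test for 45 genes. There PSMB11 and PSMD5 were listed at 0, and PSMB10, PSMB8, PSMB9 and PSMA2 had base means of 2.45, 2.95, 9.59 and 28, so that their values rest on few reads.

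Promoter sequences were available for 42 of the 48 genes in RefSeq (GRCh38.p14), those of PSMB6, PSMG3, PSMB1, PSMB7, PSMA7 and PSMD4 being not among them. The motif TGACNNNGC, the core of the element through which NFE2L1 and NFE2L2 act, was searched on both strands over the 250 bases before each start. It stood in 13 of the 42 (31%), against 3609 of 27305 genes (13.2%). The windows below, 5′ to 3′ on the gene's strand with the motif or its reverse complement in capitals, belong to some of these 13 genes. The motif also stood before PSME1, which fell in both rescues and whose window is not printed. PSMG1 (chr21:39183596-39183664, minus strand) and PSMD12 (chr17:67366704-67366772, minus strand) were among the genes that rose in the rescues, PSMB9 (chr6:32854014-32854082, plus strand) fell, and PSMA4 (chr15:78540630-78540698, plus strand) and PSME4 (chr2:53970994-53971057, minus strand) differed in their arsenite response.
PSMG1: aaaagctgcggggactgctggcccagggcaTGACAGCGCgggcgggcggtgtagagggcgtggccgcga
PSMD12: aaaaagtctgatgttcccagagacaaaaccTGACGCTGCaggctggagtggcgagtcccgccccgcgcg
PSMB9: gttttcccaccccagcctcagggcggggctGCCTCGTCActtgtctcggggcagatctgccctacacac
PSMA4: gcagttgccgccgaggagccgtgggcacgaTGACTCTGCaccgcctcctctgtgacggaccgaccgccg
PSME4: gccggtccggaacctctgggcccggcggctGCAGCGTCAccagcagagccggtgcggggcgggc
A match is a description of the letters, not a binding site. Of the genes with a promoter in the table that were tested in WT rescue against KO, 9 of 13 with the motif and 22 of 27 without it were called higher, with median log2 fold changes of 0.48 and 0.65.

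RIP-seq asked which proteasome transcripts come down with G3BP1. In the IP 37 of the 45 tested genes were higher and 4 were lower, where 56.1% of all tested genes were called, 24.7% higher and 31.4% lower. Their median log2 fold change was 1.31 in the authors' deposited table, against 0.12 for all genes at a base mean of 100 or more. All 7 constitutive beta subunits were higher, from 1.57 to 2.41, as were all 6 ATPases, from 0.57 to 2.29. The alpha ring had 6 higher and 1 lower, the other 19S subunits 8 higher and 2 lower, and the 20S assembly chaperones 3 higher and 1 not called.

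The highest RIP value in the authors' deposited table was that of PSMB6 (ENSG00000142507), which carries the caspase-like site, at 2.41 with SE 0.13 and adjusted p 1.12e-75. PSME1 (ENSG00000092010), a subunit of the interferon-inducible activator, followed at 2.35 (SE 0.14), and PSMC1 (ENSG00000100764), an ATPase of the 19S base, at 2.29 (SE 0.16). PSMC1 overlaps NRDE2 in the RefSeq annotation and has pseudogenes, so its reads are uncertain in every comparison. The catalytic subunits PSMB5 and PSMB7 stood at 1.87 and 2.14 in the authors' deposited table. The 4 genes below the input in the authors' deposited table were PSME4 (ENSG00000068878), a very large single-chain activator, at -3.35 (SE 0.15, adjusted p 1.71e-106), PSMA2 at -2.46 (SE 0.50, adjusted p 2.87e-06), and PSMD1 and PSMD2, the 2 large scaffold subunits of the 19S base, at -1.09 (SE 0.17) and -1.08 (SE 0.11). PSMD12 and PSMG4 were not called, at -0.22 and -0.03 in the authors' deposited table. Of the immunoproteasome subunits, PSMB9 was higher at 1.75 (SE 0.65, adjusted p 0.0134), while PSMB8 at 0.20 (SE 0.94) and PSMB10 at -0.85 (SE 0.99) had errors as large as 1 log2 unit in the authors' deposited table and were not called. Across the 45 genes with a value and a gene span, RIP fold change was set against the genomic span in RefSeq, introns included. The Spearman correlation was -0.25, the same as over 16706 genes (-0.25), where all points share the same 6 libraries. The length of the mature transcript was not examined. Division of the Wald statistics by their robust spread over genes (9.34), which is taken over changed and unchanged genes alike, left 0 of the 41 calls.

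**Figure D1:**
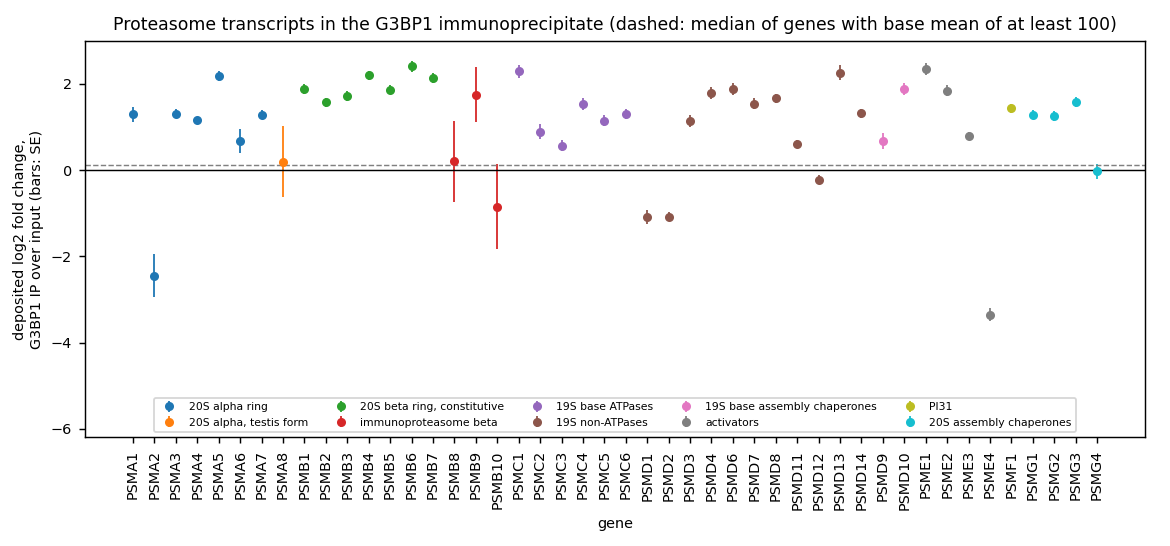
Deposited log2 fold change of each proteasome gene in the G3BP1 IP over input (points, coloured by role, with SE), genes along the x axis. The beta ring sits between 1.57 and 2.41, and PSME4, PSMA2, PSMD1 and PSMD2 lie below 0.

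The first U2OS experiment compared WT, KO and G3BP1 rescue. Between KO and WT, 8 of 46 genes were higher in KO and 19 lower, where 18.4% and 19.4% of all tested genes were called higher and lower. The lower genes included all 6 ATPases, from -0.36 to -1.10, and 5 of the 11 other 19S subunits, while of the 14 constitutive 20S subunits 4 were lower and 1 higher. The higher genes were immunoproteasome subunits PSMB9 and PSMB8, the 20S assembly chaperones PSMG1, PSMG2 and PSMG3, and PSMB2, PSMD3 and PSME2. Of these, PSMG2, which forms a pair with PSMG1, had 3787 and 3894 normalised reads in WT and 5411 and 5543 in KO, at 0.51 in the authors' deposited table (SE 0.06, adjusted p 1.12e-15), and overlaps SPIRE1 and CEP76 in RefSeq.

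PSMD2 (ENSG00000175166) had 38109 and 41343 normalised reads in WT, 18037 and 18564 in KO and 38859 and 42539 in G3BP1 rescue. The KO libraries lay below all the others, and WT and rescue overlapped. The authors' deposited tables gave -1.12 for KO over WT (SE 0.05, adjusted p 2.23e-106), -1.14 for KO over rescue (SE 0.05, adjusted p 7.27e-125) and -0.04 for WT over rescue (adjusted p 0.63). PSMC1 had 2396 and 2606 normalised reads in WT, 1149.9 and 1181 in KO and 2449 and 2525 in rescue, the same order, with -1.10 for KO over WT and -1.07 for KO over rescue in the authors' deposited tables (SE 0.09 and 0.08). PSMD5 (ENSG00000095261), a chaperone that assembles the 19S base, had 2182 and 2311 normalised reads in WT, 1177 and 1264 in KO and 2079 and 2124 in rescue. It was -0.88 in KO over WT in the authors' deposited table (SE 0.09, adjusted p 7.56e-22), and WT over rescue was not called (0.09, adjusted p 0.394).

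**Figure D2:**
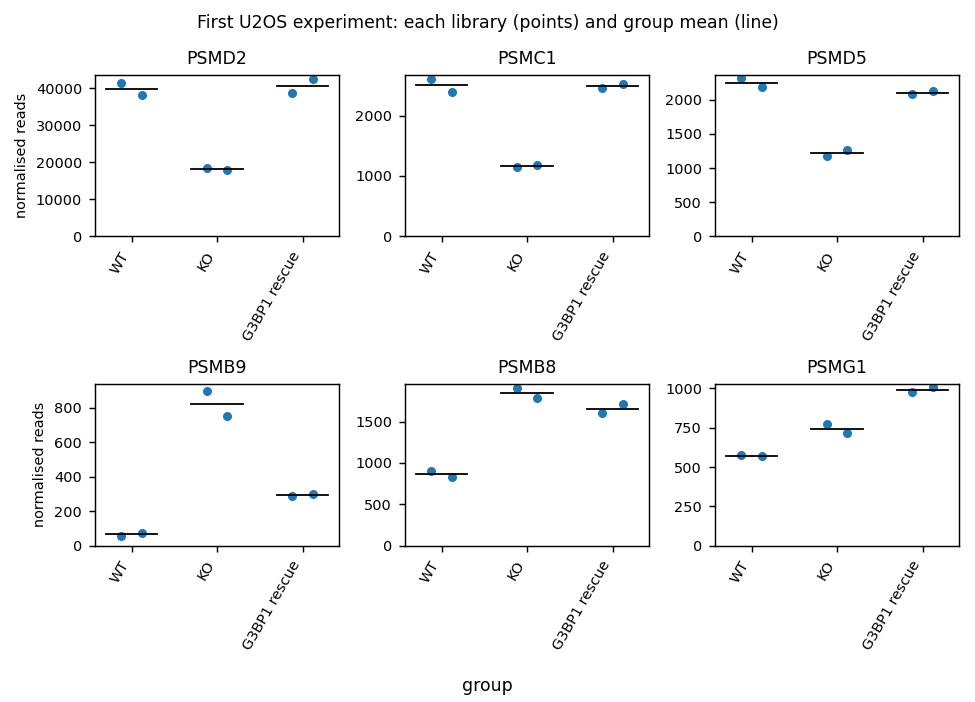
Normalised reads of 6 proteasome genes in each library of the first U2OS experiment (points) with group means (lines), on axes that start at 0. For PSMD2, PSMC1 and PSMD5 the KO libraries lie below WT and rescue. For PSMB9 they lie above both, and for PSMG1 rescue is highest.

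Against G3BP1 rescue, KO was lower for 36 of 46 genes and higher for 1, where 21.5% and 16.1% of all tested genes were called lower and higher. The median log2 fold change was -0.44 in the authors' deposited table, against -0.05 for all genes at a base mean of 100 or more. All 7 constitutive beta subunits, all 6 ATPases and all 11 other 19S subunits were lower in KO, as were 5 of 7 alpha subunits. After PSMD2 and PSMC1 the lowest was the ATPase PSMC3, with 6138 and 6412 normalised reads in KO and 10489 and 11636 in rescue, at -0.81 in the authors' deposited table (SE 0.06, adjusted p 3.62e-43). PSMB9 was the single gene called higher.

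WT cells were also lower than G3BP1 rescue for 31 of 46 genes and higher for 0, where 20.4% and 15.2% of all tested genes were called lower and higher. At an unadjusted p under 0.05 and a positive fold change there were also 0, and the limma-voom test on recovered reads called 34 lower and 0 higher, where it called 51.7% of all 20676 genes. The 11 non-ATPase subunits of the 19S cap had 10 lower, with a median of -0.36, while the 6 ATPases had 4 lower with a median of -0.17 in the authors' deposited table. PSMG1 (ENSG00000183527), a 20S assembly chaperone, had 571 and 574 normalised reads in WT, 716 and 773 in KO and 976 and 1007 in rescue, 3 groups that do not overlap, and was -0.77 in WT over rescue in the authors' deposited table (SE 0.11, adjusted p 8.12e-11). The summed reads of the proteasome genes were 58.6 and 59.5 per 10000 reads in the WT libraries, 50.1 and 50.2 in KO and 68.4 and 70.4 in rescue. With Wald statistics divided by their robust spread, 2 of 27 calls were left for KO against WT, 4 of 37 for KO against rescue and 0 of 31 for WT against rescue.

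In the second experiment both rescues raised most proteasome genes above KO. WT rescue had 37 of 46 genes higher and 3 lower, where 23% and 19.1% of all tested genes were called higher and lower. NTF2-deletion rescue had 37 higher and 2 lower, where the shares were 22.8% and 18.7%. The medians were 0.61 and 0.67 in the authors' deposited tables, against 0.18 and 0.17 for all genes above the same limit, and both comparisons share the KO libraries. Centred on these medians over all genes, 32 genes were higher and 4 lower in WT rescue, and 33 higher and 3 lower in NTF2-deletion rescue. All 7 constitutive beta subunits, all 6 ATPases and all 11 other 19S subunits were called higher in each rescue, with 6 of 7 alpha subunits, 3 of 4 assembly chaperones of the 20S core and PSMF1, a regulator that binds the core. In bulk RNA, fewer cells that express a gene and less RNA per cell cannot be told apart.

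PSMB7 (ENSG00000136930), which carries the trypsin-like site, had 854 and 929 normalised reads in KO, 2534 and 2607 in WT rescue and 2472 and 2655 in NTF2-deletion rescue. Its KO libraries lay far below both rescues, which overlapped each other. The authors' deposited tables gave 1.50 (SE 0.09, adjusted p 1.59e-63) and 1.51 (SE 0.09, adjusted p 1.18e-58). PSMG1 had 144 and 152 normalised reads in KO, 362 and 386 in WT rescue and 393 and 398 in NTF2-deletion rescue, or 1.28 (SE 0.20) and 1.37 (SE 0.20) in the authors' deposited tables. PSMD2, the 19S scaffold with the largest fall in KO of the first experiment, had 4735 and 5041 normalised reads in KO, 11601 and 11886 in WT rescue and 12209.8 and 12343 in NTF2-deletion rescue. It stood at 1.24 (SE 0.05, adjusted p 1.63e-128) and 1.32 (SE 0.05, adjusted p 7.74e-126) per the authors' deposited tables.

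The alpha subunit with the lowest called values, PSMA4 (ENSG00000041357), had 1863 and 1988 normalised reads in KO, 2219 and 2222 in WT rescue and 2272 and 2329.9 in NTF2-deletion rescue. The groups do not overlap, yet its log2 fold changes of 0.19 (SE 0.08, adjusted p 0.0439) and 0.25 (SE 0.08, adjusted p 0.00534) per the authors' deposited tables were close to the medians over all genes. PSMA5, also an alpha subunit, stood at 1.17 and 1.23 in the same authors' deposited tables. The activators split. PSME3, the nuclear activator, rose from 953 and 957 normalised reads in KO to 2142 and 2185 in WT rescue, and PSME4 from 1825 and 1963 to 3392 and 3421. PSME1 fell from 614 and 639 normalised reads in KO to 358 and 382 in WT rescue and 383 and 455 in NTF2-deletion rescue, at -0.77 (SE 0.15, adjusted p 8.15e-07) and -0.58 (SE 0.15, adjusted p 0.000391) per the authors' deposited tables. Its partner PSME2, at -0.21 and -0.11 in the authors' deposited tables, was not called.

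**Figure D3:**
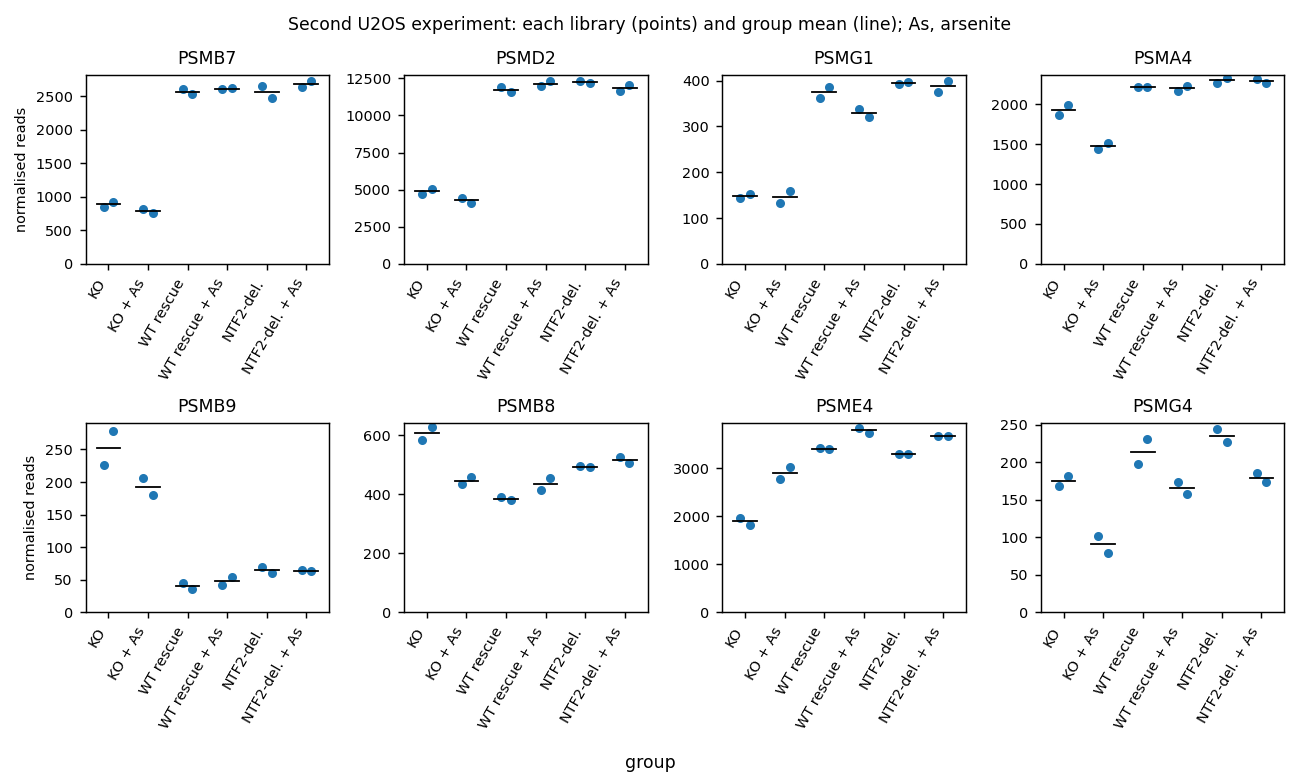
Normalised reads of 8 proteasome genes in each library of the second U2OS experiment (points) with group means (lines), on axes that start at 0; As marks 200 uM arsenite for 2 h. PSMB7, PSMD2 and PSMG1 are higher in all 8 rescue libraries than in the 4 KO libraries, PSMB9 is lower, and PSMA4, PSMB8, PSME4 and PSMG4 differ between KO with and without arsenite.

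Summed over the proteasome genes, KO libraries of the second experiment had 45.2 and 46.3 per 10000 reads, WT rescue 65 and 65.8 and NTF2-deletion rescue 67.4 and 68.1. Of single genes, 40 of 46 had both WT rescue libraries above both KO libraries and 4 had both below, where 43.7% and 38.7% of all genes with at least 10 normalised reads did so. With Wald statistics divided by their robust spread, 2 of 40 calls were left for WT rescue and 1 of 39 for NTF2-deletion rescue.

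The rescue of the first and of the second experiment share no library. In both, 35 of 46 genes were called higher in rescue with G3BP1 (WT rescue in the second experiment) than in KO and 1, PSMB9, lower, where 14.4% and 10.6% of all genes tested in both were called higher and lower in both. Across the 46 genes Pearson's r of the 2 log2 fold changes was 0.858 and Spearman's rho 0.617, a description over genes that share libraries within each experiment. Values were larger in the second experiment for PSMB7 (0.80 lower in KO in the first, 1.50 higher in rescue in the second, each as a log2 fold change in the authors' deposited tables) and for PSMG1 (0.40 and 1.28), and alike for PSMD2 (1.14 and 1.24) and PSMC1 (1.07 and 0.97). The prior that shrank the fold changes differed between these tables, and the transgene raised G3BP1 far more in the second experiment. Their part in the difference was not tested.

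**Figure D4:**
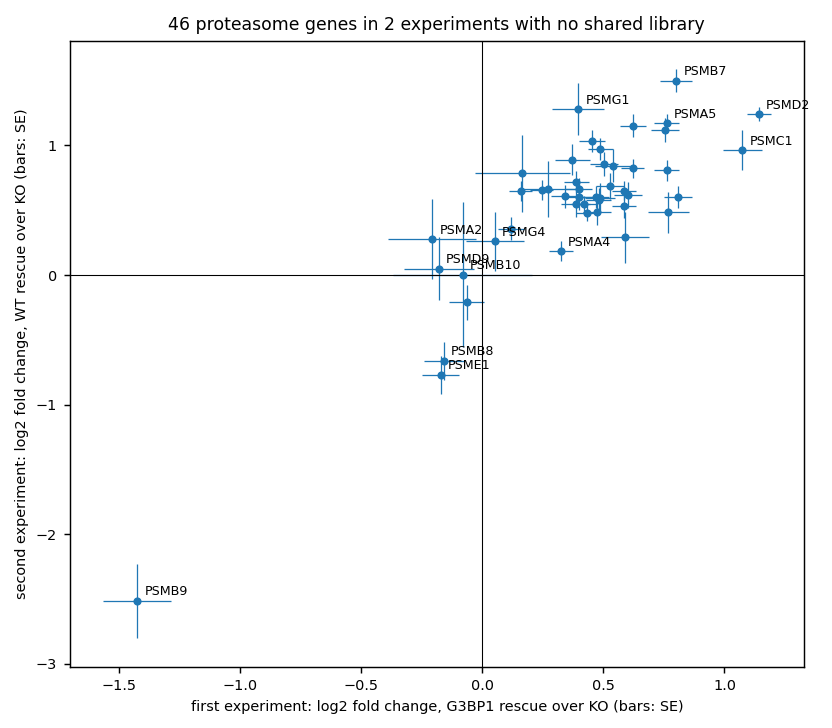
Deposited log2 fold change of G3BP1 rescue over KO in the first experiment (x axis) and WT rescue over KO in the second (y axis) for 46 proteasome genes (points, with SE). 35 genes are called above 0 on both axes, and PSMB9 is called below 0 on both.

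Of the immunoproteasome subunits, PSMB9 was called in the direction opposite to most called proteasome genes in KO against WT, KO against G3BP1 rescue and both rescues against KO, PSMB8 in KO against WT and WT rescue against KO, and PSMB10 was not called. PSMB9 (ENSG00000240065) replaces the catalytic PSMB6, PSMB8 replaces PSMB5 and PSMB10 replaces PSMB7. In the first experiment PSMB9 had 59.1 and 77.1 normalised reads in WT, 752 and 898 in KO and 289.6 and 298 in G3BP1 rescue. The 3 groups do not overlap, with KO highest and rescue between. The authors' deposited tables gave 3.43 for KO over WT (SE 0.19, adjusted p 5.2e-70), 1.42 for KO over rescue (SE 0.14, adjusted p 6.57e-23) and -1.78 for WT over rescue (SE 0.21, adjusted p 7.68e-16).

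PSMB8 (ENSG00000204264) had 834 and 905 normalised reads in WT, 1783 and 1901 in KO and 1600.3 and 1709 in rescue. Both KO and rescue lay above WT, at 1.07 for KO over WT (SE 0.10, adjusted p 5.47e-26) and -0.91 for WT over rescue (SE 0.10, adjusted p 4.85e-20) per the authors' deposited tables, and KO over rescue was not called (0.16, adjusted p 0.13). It was called there after centring (0.21, adjusted p 0.0338) and by limma-voom (0.16, adjusted p 0.029). PSMB10 had from 56.3 to 82.3 normalised reads in all 6 libraries and was called in no comparison of the first experiment. PSMB8 overlaps PSMB8-AS1 on the genome in RefSeq, and whether counting used the strand is not given in the sources used here, so its reads may hold antisense ones.

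In the second experiment PSMB9 had 226 and 279 normalised reads in KO, 35.6 and 44.5 in WT rescue and 59.6 and 70 in NTF2-deletion rescue. It fell in both rescues, at -2.51 (SE 0.29, adjusted p 2.7e-17) and -1.86 (SE 0.26, adjusted p 8.32e-12) per the authors' deposited tables. PSMB8 fell from 583 and 629.7 normalised reads in KO to 379.6 and 392 in WT rescue, at -0.66 (SE 0.15, adjusted p 2.97e-05) per the authors' deposited table. In NTF2-deletion rescue it had 492 and 495 normalised reads, below KO in both libraries, but was not called in the authors' deposited table (-0.30, SE 0.14, adjusted p 0.0739). The fold change centred on all genes was -0.46 there and passed the test (adjusted p 0.00289), as did the limma-voom value of -0.29 (adjusted p 0.00248). PSMB10 had 15.2 and 16 normalised reads in KO and was not called in either rescue.

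Set against its constitutive counterpart, PSMB9 had 2.12 and 3.06 reads per 100 reads of PSMB6 in the WT libraries, 28 and 33.2 in KO of the first experiment and 7.58 and 7.89 in G3BP1 rescue. In the second experiment these were 32.9 and 40.5 in KO, 3.38 and 4.19 in WT rescue and 5.61 and 6.28 in NTF2-deletion rescue. PSMB8 had 17.8 and 19.2 reads per 100 of PSMB5 in WT, 46.3 and 48.3 in KO and 32 and 32.6 in G3BP1 rescue. These shares are not corrected for length and serve only to compare groups. Both were highest in KO in each experiment, and the KO libraries overlapped no other group without arsenite. PSMB8 in the second experiment had 61.2 and 66.8 in KO and 27.2 and 27.5 in WT rescue. The same order held for PSMB10 per 100 reads of PSMB7 (1.72 and 1.78 against 0.56 and 0.68), although PSMB10 was not called. Such shares also rise where the constitutive subunit is lower, and PSMB5, PSMB6 and PSMB7 were lower in KO than in each rescue.

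Whether the NTF2 domain matters for these genes was asked by comparing the rescues. In the difference of their fold changes over KO, 0 of 46 genes passed the test and 0 had an unadjusted p under 0.05, where 0.0185% of 16210 tested genes were called. Both fold changes rest on the same KO libraries and the SE adds their errors as if they were independent, so that this test is conservative. These differences ran from -0.65 (PSMB9) to 0.16. A direct limma-voom contrast of the rescue libraries, chosen after seeing the data, called 1 gene, PSMB8, at -0.36 (SE 0.09, adjusted p 0.0403), with its 2 WT rescue libraries below the 2 NTF2-deletion libraries, where 1.25% of 16666 genes were called. Without any 1 of the 4 libraries it called 0. With arsenite in both rescues, 0 of 46 genes differed, 0 at an unadjusted p under 0.05 and 0 by limma-voom, where 0.0785% of 16553 genes were called by the first test and 3.58% of 16666 by limma-voom. That few genes passed does not show that the 2 forms act alike. By the direct contrast without arsenite the SE was 0.05 for PSMA4 and 0.09 for PSMB8, against 0.11 and 0.20 by the difference of fold changes.

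After arsenite for 2 h few proteasome genes passed the authors' test, while in KO cells most lay a little lower. In KO cells 1 of 46 genes was higher and 5 lower, where 8.56% and 10.9% of all tested genes were called higher and lower. The share of lower ones was thus near that of all genes. In WT rescue 2 of 45 were higher and 0 lower, where the shares were 8.18% and 12.2%, and after centring 2 were higher and 1 lower. In NTF2-deletion rescue 1 of 44 was higher and 0 lower, where the shares were 2.43% and 6.14% (8.57% in all). In KO cells 31 of 46 genes had both arsenite libraries below both untreated ones and 5 had both above, where 31.3% and 30.6% of all genes did so, and the summed reads of the proteasome genes were 42.4 and 43.2 per 10000 with arsenite against 45.2 and 46.3 without, which do not overlap. In the rescues the sums were 67.1 and 67.6 with arsenite against 65 and 65.8 (WT) and 69.1 and 69.5 against 67.4 and 68.1 (NTF2-deletion), higher in each. The median over the genes was -0.15 in KO cells and 0 and 0.01 in the rescues in the authors' deposited tables. The limma-voom test called 2 higher and 18 lower in KO cells, all 6 of the authors' calls among them, where 34.9% of 16666 genes were called, with 1 to 2 higher and 9 to 17 lower when any 1 library was left out (11 calls in all without 1 of the KO libraries or 1 of the KO libraries with arsenite). It called 2 higher and 1 lower in each rescue, where 20.6% (WT) and 13% (NTF2-deletion) of genes were called, and 1 to 2 genes in WT rescue and 0 to 1 in NTF2-deletion rescue without any 1 library.

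PSME4, the single-chain activator, had 1825 and 1963 normalised reads in KO and 2772 and 3022 in KO with arsenite, with 3392 and 3421 in WT rescue and 3727 and 3838 after arsenite. It rose by 0.60 in KO (SE 0.08, adjusted p 2.77e-11) and by 0.13 in WT rescue (SE 0.04, adjusted p 0.0111) per the authors' deposited tables. PSMC6, an ATPase, had 1559.5 and 1636 normalised reads in WT rescue and 1928 and 1975 with arsenite, and 1410.0 and 1721 in NTF2-deletion rescue against 1919 and 1942. It rose by 0.26 (SE 0.05, adjusted p 1.24e-05) and 0.27 (SE 0.08, adjusted p 0.0175) in the rescues and was not called in KO (0.25, SE 0.11, adjusted p 0.0896) per the authors' deposited tables. By limma-voom the call of PSME4 in WT rescue was lost without either untreated library or 1 of the arsenite libraries (adjusted p 0.0886, 0.114 and 0.164), and that of PSMC6 in NTF2-deletion rescue without the untreated library that had 1410.0 normalised reads (adjusted p 0.178).

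PSMG4, a 20S assembly chaperone, had 168 and 182 normalised reads in KO and 79.6 and 101 with arsenite. It fell by 0.80 (SE 0.23, adjusted p 0.00543) per the authors' deposited table. In WT rescue it had 197 and 231 normalised reads without and 158 and 174 with arsenite, groups that do not overlap, but the authors' deposited value of -0.32 was not called (adjusted p 0.0911). PSMA4 had 1863 and 1988 normalised reads in KO and 1439 and 1521 with arsenite, a fall of 0.37 (SE 0.09, adjusted p 0.000309) per the authors' deposited table. PSMB8, with 434 and 457 normalised reads in KO with arsenite, fell by 0.42 (SE 0.14, adjusted p 0.0139), PSMB2 by 0.26 and PSMD2 by 0.19 (adjusted p 0.0312) in the same authors' deposited table. PSMB9 had 179 and 207 normalised reads in KO with arsenite and was not called (-0.34, adjusted p 0.257). With Wald statistics divided by their robust spread, 1 of 6 calls was left in KO, 0 of 2 in WT rescue and 0 of 1 in NTF2-deletion rescue.

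The response to arsenite differed between WT rescue and KO cells for 3 of 46 genes, where 4.51% of 15648 genes were called. The difference of the log2 fold changes was 0.34 for PSMA4 (SE 0.10, adjusted p 0.0226), 0.56 for PSMB8 (SE 0.17, adjusted p 0.0284) and -0.47 for PSME4 (SE 0.09, adjusted p 3.99e-05), computed from the authors' deposited tables. Between NTF2-deletion rescue and KO cells it differed for 2, where 7.12% of 15442 genes were called, with 0.36 for PSMA4 (SE 0.11, adjusted p 0.0158) and -0.46 for PSME4 (SE 0.10, adjusted p 0.000192). Both comparisons share the KO libraries. The share of proteasome genes that differed was near that of all genes in WT rescue and below it in NTF2-deletion rescue. Between the 2 rescues 0 genes differed and 0 had an unadjusted p under 0.05, where 0.328% of 15865 genes were called, and limma-voom called 0.

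The catalytic subunits that PSMB8, PSMB9 and PSMB10 replace moved little with arsenite. PSMB5 had 943 and 953 normalised reads in KO and 868 and 974 with arsenite, PSMB6 687 and 689 against 565 and 641, and PSMB7 854 and 929 against 759 and 825. The first pair of groups overlaps and the other two do not, and none was called in the authors' deposited tables, in KO or in either rescue, with log2 fold changes from -0.18 to 0.06.

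After arsenite the rescues still lay above KO. Against KO without arsenite, the authors' deposited tables called 38 of 46 genes higher and 3 lower in WT rescue with arsenite, and 38 higher and 2 lower in NTF2-deletion rescue with arsenite, where 25.1% and 19.8%, and 23.3% and 19.6% (43% in all), of all tested genes were called higher and lower. The largest values there after PSMB7 (1.57 and 1.59) were those of PSMD2 and the ATPase PSMC4 (1.27, SE 0.08) in WT rescue, and of PSMG1 and PSMA5 (1.34, SE 0.07) in NTF2-deletion rescue, while PSME1 stood at -0.83 (SE 0.13) and -0.59 (SE 0.14) in the authors' deposited tables. With arsenite in both groups, limma-voom called 40 of 46 higher and 2 lower in WT rescue and the same numbers in NTF2-deletion rescue, where 38.7% and 33% (71.6% in all) of 16666 genes, and 36.7% and 32.3% (69% in all), were called. Medians were 0.76 and 0.82 on its log2 scale. In that contrast PSMB7 stood at 1.72 (SE 0.06) and 1.76 (SE 0.06), PSMA4 at 0.57 (SE 0.05) and 0.63 (SE 0.06), and PSMB9 at -2.05 (SE 0.18) and -1.58 (SE 0.19) in WT and NTF2-deletion rescue by limma-voom. PSMB8 was not called in WT rescue there (-0.05, adjusted p 0.646 by limma-voom) and was higher in NTF2-deletion rescue (0.21, adjusted p 0.0291). The median over all genes is not given for this contrast. Against KO without arsenite it was 0.22 in WT rescue and 0.19 in NTF2-deletion rescue with arsenite, for genes at a base mean of 100 or more. The PSMB8 value of 0.21 was about that large. The comparison with arsenite in both groups was chosen after seeing the data.

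Other genes of the pathway were taken from a list of 31. In WT rescue over KO 28 of them were higher and 0 lower (23% and 19.1% of all tested genes), with a median of 0.64 in the authors' deposited table. In KO over G3BP1 rescue 3 were higher and 20 lower (16.1% and 21.5% of all tested genes), with a median of -0.32 in the authors' deposited table. The 19S ubiquitin receptor ADRM1 had 1681 and 1809 normalised reads in KO and 4372 and 4540.1 in WT rescue, at 1.33 in the authors' deposited table (SE 0.07). POMP, which matures the 20S core, rose from 536 and 566 to 1114 and 1150.2 normalised reads, at 1.01 (SE 0.12), and the 19S-bound deubiquitinase UCHL5 stood at 1.44 (SE 0.20) in the authors' deposited table. USP14, the other such deubiquitinase, had 1985 and 2007 normalised reads in WT, 11085 and 11217 in KO and 8013 and 8639.7 in G3BP1 rescue, groups that do not overlap, at 2.47 for KO over WT (SE 0.06) in the authors' deposited table.

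The transcription factor NFE2L1, which drives proteasome gene expression, had 9549 and 9614 normalised reads in KO and 5617 and 5678 with arsenite, and 11081 and 11095 in WT rescue against 7703 and 7820.5. It fell by 0.76 in KO (SE 0.06), 0.53 in WT rescue (SE 0.03) and 0.38 in NTF2-deletion rescue (SE 0.04) in the authors' deposited tables. In WT rescue over KO NFE2L1 stood at 0.19 (SE 0.04, adjusted p 6.36e-05) and NFE2L2 at 0.65 (SE 0.10) in the authors' deposited table. The value of NFE2L1 was close to the median of 0.18 over all genes at a base mean of 100 or more. ZFAND2A, a stress-induced partner of the proteasome, rose with arsenite by 2.71 (SE 0.16), 1.42 (SE 0.08) and 0.89 (SE 0.11) in KO, WT rescue and NTF2-deletion rescue in the authors' deposited tables. In RIP-seq, 17 of the 31 were higher and 10 lower, beside the 24.7% and 31.4% of all tested genes, so that the share of lower ones was near that of all genes. Low values in the authors' deposited table were those of the proteasome-binding adaptor ECPAS at -3.55 (SE 0.14) and the protease DDI2, which activates NFE2L1, at -2.84 (SE 0.14).

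**Figure D5:**
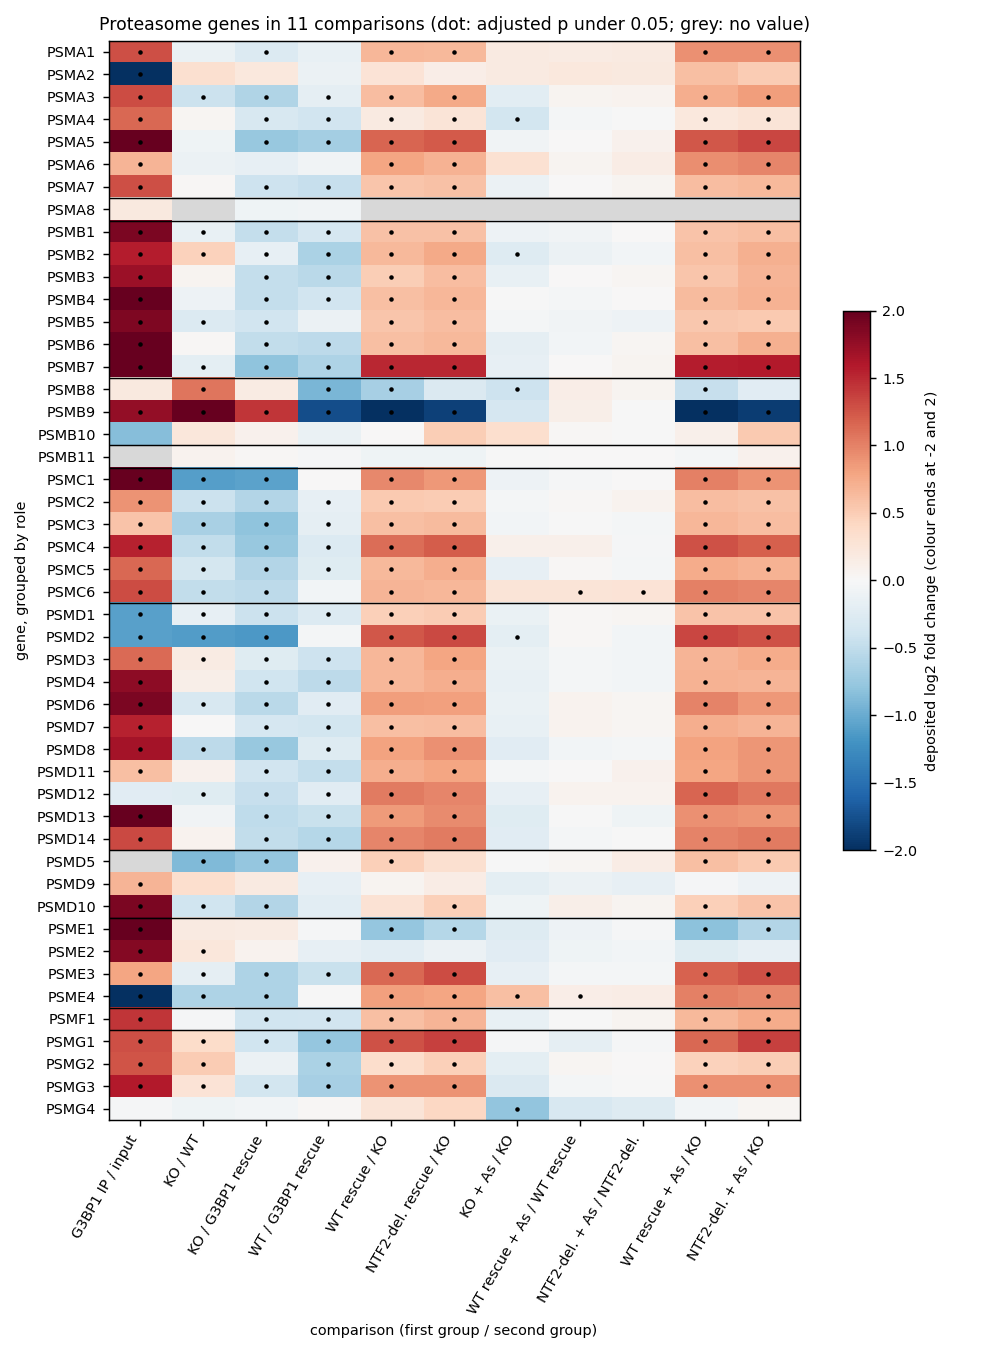
Deposited log2 fold changes of the 48 proteasome genes (rows, grouped by role) in 11 comparisons (columns); colours end at -2 and 2, dots mark an adjusted p under 0.05 and grey marks no value. Most rows are red in the IP and in all 4 comparisons of a rescue with KO and blue in KO over G3BP1 rescue, PSMB9 shows the opposite colours in KO over WT or G3BP1 rescue and in the 4 rescue columns, and the 3 arsenite columns are pale.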

How the data were processed

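Of the 72 samples 24 were used, which fell into 11 groups by their labels, and the other 48 were not analysed here. Poly-A RNA was sequenced with a directional kit, per the labels' protocols. STAR and DESeq2 (version 2.11.40.6) are named in the submitters' processing notes, and the genome build, annotation and strand setting of counting are not given in the sources used here. Each of the 11 deposited tables lists 61541 genes and 4 summary lines, which were left out. The base mean is a signal deposited by the authors, the average of normalised reads over the libraries compared. Fold changes were deposited as log2 values after shrinkage, and the prior's width, derived here from each table, was between 0.278 and 2.06. The deposited Wald statistic is a score, and the p-value and adjusted p-value are deposited as the authors' own.

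Calls used an adjusted p under 0.05. Differences between 2 tables were divided by the root of the summed squared SEs, tested two-sided against a normal distribution and adjusted by Benjamini-Hochberg over genes at a base mean of 10 or more in each. Whole reads per library of the U2OS tables were recovered by lattice reduction (sympy 1.14.0), since a base mean is a sum of whole reads times fixed steps. The search, which was not exhaustive, found exactly 1 set of reads that gave the base means within a relative tolerance of 1e-13. It did so for 21424 of 21446 genes in the first experiment and 17922 of 17945 in the second. In the second experiment KO reads from separate sets of tables were equal for 17939 genes and unequal for 0. Size factors were fitted on 1 scale per experiment, with a free scale for each table. The largest misfit to a table was 0.277% in the first experiment and 0.899% in the second. The RIP table allowed no such recovery. For G3BP1 the reads of the second experiment were not solved. limma-voom (limma 3.58.1, R 4.3.3) was run on these reads over genes with a mean of at least 10 normalised reads, an alternative chosen after seeing the data. Libraries recovered this way carry no replicate number. No column of per-sample values was left unmapped (0).

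The members, gene lists, tests and alternatives were chosen with earlier results of these data known. Named genes were, per comparison, the 3 highest and 3 lowest called genes at a base mean of 100 or more, PSMB5 to PSMB10, and genes under a base mean of 10; others named were chosen after their values were seen. The difference test, the read recovery and the limma-voom fit were tested on simulated data.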

Additional observations from a re-analysis of the deposited data

Results flagged for a closer look

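All results here came from a test of a difference between groups. With arsenite in WT rescue against KO cells, the log2 fold changes differed by 0.34 for PSMA4, 0.56 for PSMB8 and -0.47 for PSME4. Between NTF2-deletion rescue and KO cells the difference was 0.36 for PSMA4 and -0.46 for PSME4. PSMA4 and PSMB8 fell in KO cells and were not called in the rescues, and PSME4 rose more in KO cells. All of these share the 2 KO libraries with and the 2 without arsenite. By the same test 4.51% and 7.12% of all tested genes were called. The share of proteasome genes was near the first value in WT rescue and below the second in NTF2-deletion rescue. By limma-voom on recovered reads, PSMA4 differed by 0.36 (adjusted p 0.000722), PSMB8 by 0.60 (adjusted p 0.000569) and PSME4 by -0.46 (adjusted p 4.87e-06) in WT rescue against KO. In NTF2-deletion rescue against KO it gave 0.38 for PSMA4 (adjusted p 0.000373), 0.50 for PSMB8 (adjusted p 0.00248) and -0.46 for PSME4 (adjusted p 4.77e-06), so that PSMB8 passed this test in both rescues. Of all genes, 10.5% and 13.7% were called.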

How the results depend on the processing

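No paired analysis was possible because the deposited tables hold no values that carry the replicate numbers of the labels. Counts of called genes stayed within 1.5 times under centring, without the filter on low values and with a minimum fold change of 0.25, except for arsenite in WT rescue (1 of 2 with the minimum fold change). Wald statistics divided by their robust spread left 0 calls for RIP, 2 for KO against WT, 4 for KO against G3BP1 rescue, 0 for WT against G3BP1 rescue, 2 for WT rescue, 1 for NTF2-deletion rescue, 1 for arsenite in KO, 0 for arsenite in WT rescue and 0 in NTF2-deletion rescue, and 1 each for the rescues with arsenite against KO. At an adjusted p under 0.01, 3 genes were left for arsenite in KO, 1 in WT rescue and 0 in NTF2-deletion rescue, and 1 and 1 for the differences of the rescues from KO. By limma-voom 20 genes were called for arsenite in KO (34.9% of all genes), 3 in NTF2-deletion rescue (13%), 9 and 5 for the differences of WT and NTF2-deletion rescue from KO (10.5% and 13.7%), and 1 between the unstressed rescues (1.25%). The cause of these changes was not tested. Without any 1 library, every called gene of the 10 U2OS comparisons kept its direction by the ratio of group means. That count took only genes already called and did not test them again, so it could hardly change. Leaving out a RIP library was not run, as its reads were not recovered. No called gene took the opposite call under centring or limma-voom, but PSMA4 in WT rescue with arsenite against KO turned from 0.21 to -0.01 after centring, no longer called.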
